A study of Homo sapiens with 6 samples.

Results

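The genes described here are 8 members of the NOTCH signalling pathway, taken by name as a list: the receptors NOTCH1, NOTCH2 and NOTCH3, the Jagged ligands JAG1 and JAG2, the DNA-binding factor RBPJ and the target genes HES1 and HEY1. Of the 8 listed genes, 7 are among the 19198 genes of the normalized count table, and HEY1 is not analysed here. They were read in RNA-Seq of MCF10A, an established and immortalized line of human mammary epithelial cells. By the sample labels there were 3 samples grown with growth factors and 3 growth factor-depleted samples. The series' own design text speaks of 2 replicates each, and the labels were followed. All 6 were kept in DMEM:F12 with 5% horse serum, penicillin, streptomycin and glutamine. The medium of the first group also held hydrocortisone at 0.5 µg/ml, cholera toxin at 100 ng/ml, EGF at 20 ng/ml and insulin at 10 µg/ml, and the depleted group received none of these 4 additions, so their separate effects cannot be told apart. The line is 1 cell source. The study's methods give only an upper limit for the days of depletion, reached when the cells changed shape, and not the day of these samples. The study used depletion as a way to induce epithelial-mesenchymal transition, and the comparison here asks whether the RNA of the NOTCH genes differed between the growth conditions.

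NOTCH receptors are single-pass membrane proteins that bind Jagged or Delta-like ligands on a neighbouring cell. Ligand binding exposes the receptor to ADAM proteases and then to gamma-secretase, and the freed intracellular part enters the nucleus, where it joins RBPJ and a Mastermind-like protein on DNA. Genes of the HES and HEY families, HES1 among them, are the classical targets of this complex and encode basic helix-loop-helix repressors. Without the receptor fragment RBPJ is bound by corepressors. In the breast the pathway takes part in the choice between basal and luminal cell fates, and it has been tied to epithelial-mesenchymal transition in several tissues.

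By Gencode v44 on hg38, the members lie on 7 chromosomes. NOTCH1 spans chr9:136494433-136546048, NOTCH2 chr1:119911553-120100779 and NOTCH3 chr19:15159038-15200995. JAG1 spans chr20:10637684-10673999 and JAG2 chr14:105140982-105168824. RBPJ spans chr4:26163455-26435131 and HES1 chr3:194136148-194138732. No other gene of the table overlaps a member on either strand. NOTCH2 has a near copy of its first exons in NOTCH2NLA, which held between 0.306% and 0.999% as many reads as NOTCH2 in the 6 samples, and how the counting split reads shared by the copies is not given in the sources used here.

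RBPJ recognises a short DNA word, and its exact letters GTGGGAA were searched on both strands of the 250 bases before each transcription start in RefSeq on GRCh38.p14. They occurred in 5.43% of 35116 such windows, and 0.174% held at least 2 copies. Of the 72 genes on a wider NOTCH pathway list, described further on, 60 had a window and 8 held the word. This count is per gene, over any of its windows, and some genes had several, so it is not on the scale of the 5.43%. Of the 9 genes of the list's target group with a window, 5 held it (HES1, HES4, HES5, HEY2 and HEYL), against 0 of 4 receptors and 0 of 4 ligands. The windows of HES1, HES4 and RBPJ are printed because they hold the word, and that of NOTCH1 because it was the member that passed the test. Each runs 5′ to 3′ in the direction of the gene and ends at the base before the start, with the RBPJ word, or its reverse complement, in capitals.
HES1 (chr3:194135898-194136147, plus strand): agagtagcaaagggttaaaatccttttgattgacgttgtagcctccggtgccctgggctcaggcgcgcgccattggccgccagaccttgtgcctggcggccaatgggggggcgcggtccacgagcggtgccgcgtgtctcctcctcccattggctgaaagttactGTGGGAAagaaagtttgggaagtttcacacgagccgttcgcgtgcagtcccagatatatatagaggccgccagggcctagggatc
HES4 (chr1:1000098-1000347, minus strand): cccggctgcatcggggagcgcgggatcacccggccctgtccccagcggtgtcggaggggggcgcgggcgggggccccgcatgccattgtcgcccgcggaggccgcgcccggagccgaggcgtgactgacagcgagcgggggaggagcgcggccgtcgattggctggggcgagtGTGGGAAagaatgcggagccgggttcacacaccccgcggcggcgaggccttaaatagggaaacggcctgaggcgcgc
RBPJ (chr4:26319496-26319745, plus strand): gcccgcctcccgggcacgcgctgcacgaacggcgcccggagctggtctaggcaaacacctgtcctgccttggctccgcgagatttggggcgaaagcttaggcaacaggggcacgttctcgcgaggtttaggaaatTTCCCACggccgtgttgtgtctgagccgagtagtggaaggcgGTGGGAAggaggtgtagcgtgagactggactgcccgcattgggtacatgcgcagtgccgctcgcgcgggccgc
NOTCH1 (chr9:136546049-136546298, minus strand): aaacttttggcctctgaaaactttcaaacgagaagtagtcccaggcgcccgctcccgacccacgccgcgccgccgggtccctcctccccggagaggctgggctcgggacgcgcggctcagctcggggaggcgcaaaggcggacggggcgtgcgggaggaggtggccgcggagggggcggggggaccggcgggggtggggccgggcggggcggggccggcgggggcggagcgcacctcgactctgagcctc
In HES1 the word began 85 bases before the start and in HES4 77 bases before it. The second annotated start of RBPJ had a copy 73 bases upstream on the gene's strand and another 115 bases upstream on the other strand. The word TGTGGT, the core read by RUNX factors, was searched in the same way on both strands and stood in 11.0% of all windows. Of the listed genes 8 held it in any of their windows, again a count per gene, with 0 members among them. These are matches of letters, and binding was not measured in these samples.

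The deposited values are counts of reads per gene divided by a size factor per sample, here called normalized counts. The samples held between 7472418 and 28672630 reads on genes, and 3 reads corresponded to 1.76 to 6.71 normalized counts, which is the counting floor. Principal components were taken over the most variable genes only. The first separated the growth conditions with 81.6% of the variance of those genes. On the second (8.08%) depleted replicate 1 stood at 35.3 with the other depleted samples at -19.5 and -16.2. Deviations from a gene's mean went with transcript length, with Spearman's rho across 13035 genes from -0.359 in replicate 2 with growth factors to 0.342 in replicate 3 with growth factors, and genes are not independent replicates. The labels give the cells as luminal ductal, and markers of basal and of luminal epithelium were detected in all 6 samples. Of the basal epithelial markers 5 of 5 were in the table, with summed normalized counts of 34917 to 54808 with growth factors and 34123 to 144719 without. TP63 fell, while KRT17 was higher in all 3 depleted samples without passing the test (log2 fold change 2.44, limma adjusted p 0.0877). KRT17 alone had 61385 and 123480 in depleted replicates 2 and 3. KRT5, KRT14 and ITGB4 overlapped between the groups, with log2 fold changes of -2.04, 2.69 and -0.20, and were not called by limma. KRT5 had normalized counts of 38503, 12739 and 13008 with growth factors and 562, 10908 and 14996 without. Of the luminal markers 7 of 7 were in the table, summing to 6426 to 17512 with and 17393 to 31625 without, and KRT19 fell. KRT8 and KRT18, the most abundant of these, had log2 fold changes of 1.10 and 1.17, and ESR1 and FOXA1, lower in all 3 depleted samples, of -3.00 and -0.72, none of them called by limma. The 4 mesenchymal markers VIM, CDH2, FN1 and ZEB1 all rose, from sums of 3751 to 11196 to sums of 96767 to 180473. The endothelial markers summed to 100.3 to 1009 and 240.0 to 1610, with TEK not in the table and CDH5 higher. The leukocyte markers summed to 272.5 to 884 and 86.5 to 656, with 2 of 4 in the table and CD3E not in it, and the melanocyte and neuron markers to 33.4 to 81.5 and 335 to 426, with MLANA and RBFOX3 not in the table and SYT1 higher. Each of these marker lists is measured beside the NOTCH genes, and its part in their differences was not tested. In a culture measured in bulk, fewer cells of a type and less RNA per cell cannot be told apart.

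Among the members, NOTCH1 fell on growth factor depletion and was the only one to pass the test. NOTCH3 and JAG2 had lower means in the depleted samples without passing it, NOTCH2 and JAG1 had nearly equal means, RBPJ had a higher mean, and HES1 turned on 1 sample. A gene was called at a limma adjusted p under 0.05, corrected over all 16988 genes whose mean normalized count reached 10, with a change of at least 2-fold. Of the 7 members 1 was called lower, against 1.97% of all genes tested, and 0 were called higher, against 4.36%. The log2 fold changes were negative for 6 members and positive for 1, with a median of -0.84 beside -0.03 over all genes. A log2 fold change of -1 or below was found for 3 of 7 members and for 9.49% of all genes. The groups did not overlap, with all depleted samples lower, for 2 members (NOTCH1 and NOTCH3) against 12.1% of all genes, and with all depleted samples higher for 0 members against 13.5%. The labels do not say whether the 3 samples of a group were separate cultures, so these p-values measure only the spread between the samples, which may be technical.

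**Figure D1:**
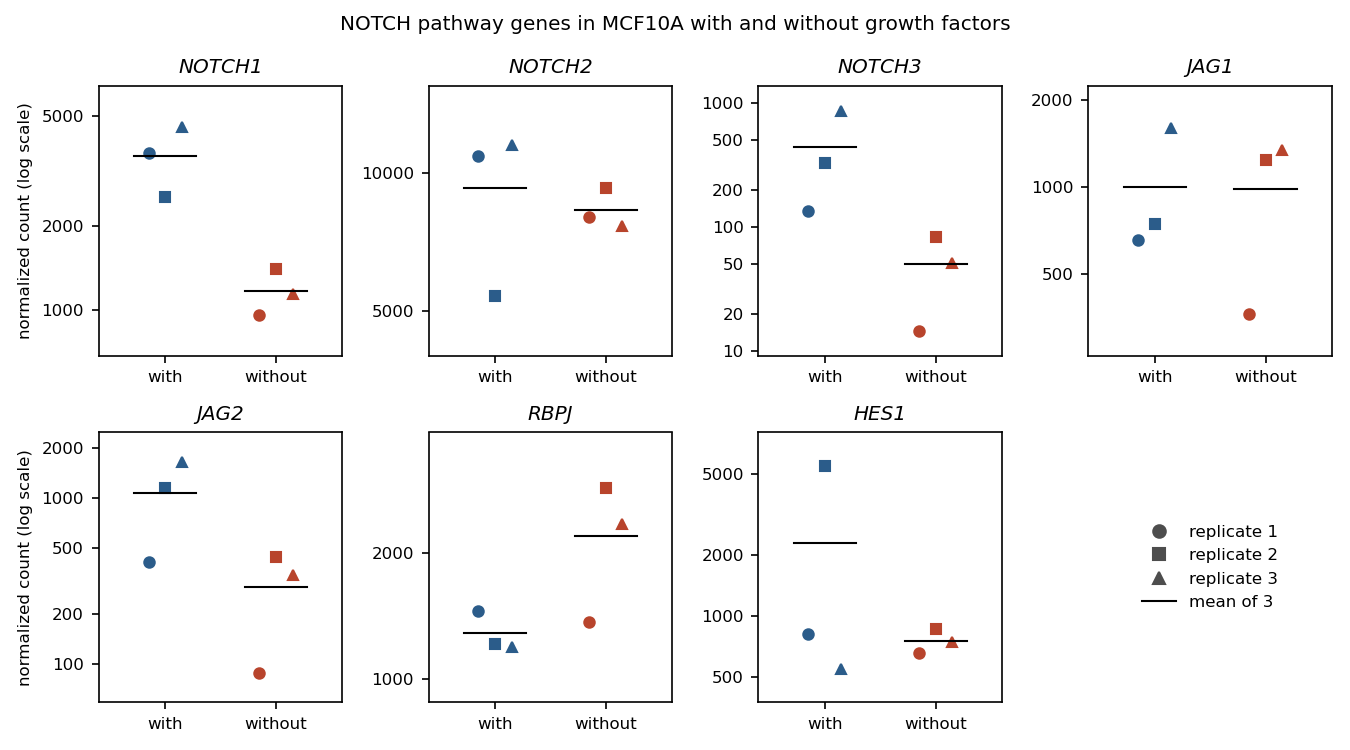
Normalized counts (log scale, a separate range in each panel) of the 7 measured NOTCH pathway genes in the 3 samples grown with and the 3 grown without growth factors, with marker shape for the replicate number and a line at the mean of 3. The groups are apart for NOTCH1 and NOTCH3 and overlap for the other 5 genes.

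NOTCH1, the receptor best known from T cell leukaemia and a regulator of epithelial fate, had normalized counts of 3675, 2555 and 4550 in replicates 1 to 3 with growth factors and of 959, 1399 and 1138 in those without. The lowest sample with growth factors lay above the highest depleted sample. The mean was 3593 ± 1000 (SD, n = 3) with growth factors and 1165 ± 221 (SD, n = 3) without, or 32.4% of the level with growth factors. The log2 fold change was -1.60 (SE 0.31, 95% interval -2.31 to -0.89) with a limma adjusted p of 0.0203. The fold change kept its size but the adjusted p did not stay under the threshold when replicate 1 with growth factors (log2 fold change -1.56, adjusted p 0.0748) or depleted replicate 1 (-1.47, 0.0611), 2 (-1.74, 0.0629) or 3 (-1.59, 0.0961) was left out of the limma fit.

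NOTCH2 showed no such difference in its normalized counts. They were 10932, 5369 and 11520 with growth factors and 8025, 9295 and 7680 without. The 3 depleted samples lay inside the range of the others, whose replicate 2 held less than the rest. The log2 fold change was -0.08 (SE 0.38) with a limma adjusted p of 0.944, and its 95% interval ran from -0.95 to 0.79. After a correction of each sample for length and GC content, all 3 depleted samples lay below the others. The corrected counts were 13970, 8038 and 9161 with growth factors and 6952, 7330 and 7387 without (log2 fold change -0.48, limma adjusted p 0.370).

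NOTCH3, the receptor with the main role in vascular smooth muscle, had far fewer reads. Its normalized counts were 135, 331 and 860 with growth factors and 14.6, 83.9 and 51.4 without, so the groups were apart while the samples of each varied 6.35-fold and 5.73-fold. The mean was 442 ± 375 (SD, n = 3) with growth factors, and the mean without was 11.3% of it. The log2 fold change of -3.04 (SE 0.80, 95% interval -4.88 to -1.21) was the most negative of the members, and its limma adjusted p of 0.0644 missed the threshold. With depleted replicate 1 left out the log2 fold change was -2.35 (limma adjusted p 0.138). NOTCH4, which lies outside the member list and is given to complete the receptor family, was low in all samples, with 3.8, 10.0 and 13.8 normalized counts in the group with growth factors and 14.6, 17.0 and 31.3 in the other (log2 fold change 1.19, SE 0.68, limma adjusted p 0.386).

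Receptor levels were compared with each other per kilobase of the canonical transcript. NOTCH2 was the most abundant receptor RNA in all 6 samples, followed by NOTCH1, NOTCH3 and NOTCH4 in all samples but depleted replicate 1, where NOTCH4 (2.17 per kilobase) stood above NOTCH3 (1.69). NOTCH1 made up 28.3%, 34.4% and 30.0% of the summed receptor level with growth factors and 12.4%, 15.0% and 14.8% without. The mean share was thus 30.9% ± 3.1 (SD, n = 3) with and 14.1% ± 1.5 (SD, n = 3) without. The share of NOTCH2 was 64.9% ± 5.1 with and 84.9% ± 1.9 without (SD, n = 3 each), and that of NOTCH3 4.10% ± 2.64 and 0.648% ± 0.401. For these 3 shares the groups did not overlap and the two-sided exact permutation p was 0.1, the smallest that 3 against 3 samples allow. Shares of 1 sum depend on each other, so these are not 3 separate results. The higher share of NOTCH2 stood beside a mean NOTCH2 count without growth factors of 89.9% of that with them. The ratio of NOTCH1 to NOTCH2 per kilobase was 0.401, 0.568 and 0.472 with growth factors and 0.143, 0.180 and 0.177 without (exact permutation p = 0.1). The shares varied less between the samples of a group than the counts did, and the low NOTCH2 sample with growth factors also had the lowest NOTCH1 of its group. The summed receptor level was 1240 ± 417 per kilobase with and 860 ± 96.9 without (SD, n = 3 each, exact permutation p = 0.4).

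**Figure D2:**
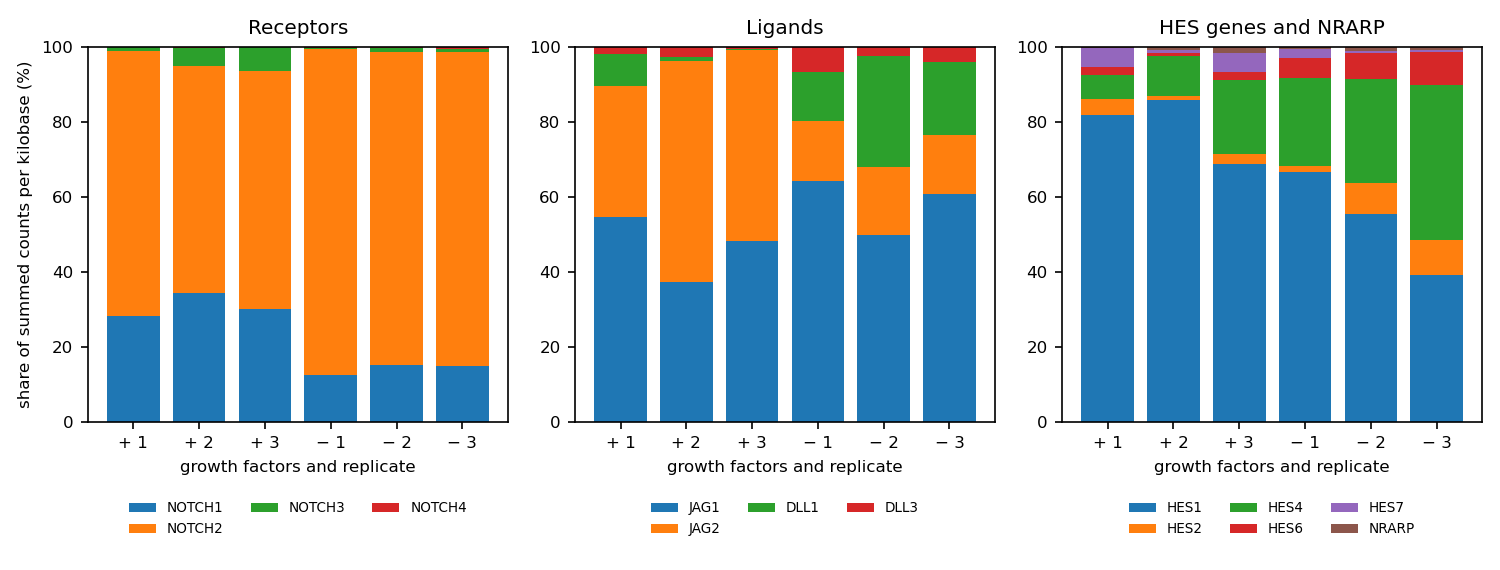
Share (%) of each gene in the summed normalized counts per kilobase of the receptors, the ligands and the HES genes with NRARP, 1 bar per sample with (+) and without (−) growth factors. NOTCH1 takes 28.3% to 34.4% of the receptor level with growth factors and 12.4% to 15.0% without, and JAG2 takes 35.0% to 59.1% and 15.9% to 18.2% of the ligand level.

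The Jagged ligands had different patterns. JAG1, the ligand altered in Alagille syndrome, had normalized counts of 655, 744 and 1594 with growth factors and 364, 1233 and 1344 without. The groups overlapped, with the lowest of all values in depleted replicate 1 and the highest in replicate 3 with growth factors. The means of 998 ± 518 and 980 ± 536 (SD, n = 3 each) gave a log2 fold change of -0.12 (SE 0.56, limma adjusted p 0.940), with a 95% interval of -1.39 to 1.15 that spans more than 2-fold in each direction. Its sign turned on single samples, being 0.49 (limma adjusted p 0.650) without depleted replicate 1 and 0.28 (0.772) without replicate 3 with growth factors.

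JAG2, the other Jagged ligand, had normalized counts of 409, 1147 and 1640 with growth factors and 87.9, 439 and 342 without. Only the lowest sample with growth factors fell within the range of the depleted samples. The mean of 1065 ± 620 (SD, n = 3) became 290 ± 181 (SD, n = 3), or 27.2% of it, and the log2 fold change of -1.95 (SE 0.69, 95% interval -3.53 to -0.37) had a limma adjusted p of 0.154. Without depleted replicate 1 it was -1.24 (limma adjusted p 0.316) and without replicate 1 with growth factors -2.53 (0.112).

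Taken per kilobase, JAG2 stood nearly level with JAG1 in the cells with growth factors, at 0.641, 1.59 and 1.06 of its level, and below it without, at 0.248, 0.366 and 0.262. The groups did not overlap in this ratio (exact permutation p = 0.1, the smallest possible). JAG2 held 48.4% ± 12.2 (SD, n = 3) of the ligand level, summed over JAG1, JAG2, DLL1 and DLL3, with growth factors and 16.7% ± 1.3 (SD, n = 3) without. With the noncanonical ligand DLK2 added to the sum, an alternative chosen after seeing the data, the share of JAG2 was 40.9% ± 8.2 and 16.2% ± 1.6 (SD, n = 3 each, exact permutation p = 0.1). DLK2 itself had normalized counts of 32.6, 185 and 64.9 with growth factors and 10.1, 7.9 and 13.4 without, with no overlap, and a log2 fold change of -2.73 (SE 0.70, limma adjusted p 0.0565). The share of JAG1 was 46.7% ± 8.8 and 58.2% ± 7.5 (SD, n = 3 each, exact permutation p = 0.2). DLL1, a Delta-like ligand that is no member of the list and was picked out after its values were seen, went from 3.26% ± 4.59 to 20.7% ± 8.2 of the ligand level (SD, n = 3 each, exact permutation p = 0.1). Its normalized counts were 65.2, 14.1 and 3.0 with growth factors and 47.6, 465 and 275 without, so it overlapped between the groups and stood at 3 reads, the floor, in replicate 3 with growth factors. Its log2 fold change of 3.54 (SE 1.13) had a limma adjusted p of 0.116. The summed ligand level was 365 ± 179 per kilobase with and 295 ± 174 without (SD, n = 3 each, exact permutation p = 0.7).

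RBPJ, the DNA-binding factor shared by all 4 receptors, was the only member with a positive log2 fold change. Its normalized counts were 1450, 1214 and 1194 with growth factors and 1367, 2856 and 2348 without. Depleted replicates 2 and 3 lay above every sample with growth factors, while depleted replicate 1 lay within their range. After a correction of each sample for length and GC content all 3 depleted samples lay above the others. The corrected counts were 1247, 1310 and 1152 with growth factors and 1545, 2510 and 2641 without (log2 fold change 0.81, limma adjusted p 0.101). The mean was 1286 ± 142 and 2190 ± 757 (SD, n = 3 each), a log2 fold change of 0.71 (SE 0.33, 95% interval -0.04 to 1.46) with a limma adjusted p of 0.283. Without depleted replicate 1 it was 1.01 (limma adjusted p 0.117).

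HES1, the best known target of the pathway and a repressor that also shuts off its own gene, had normalized counts of 815, 5501 and 548 with growth factors and 660, 864 and 749 without. Replicate 2 with growth factors held 6.75 times as much as the next sample of its group, and the other 5 samples lay within 548 to 864. The log2 fold change of -0.84 (SE 0.75, 95% interval -2.55 to 0.87, limma adjusted p 0.608) became 0.17 (adjusted p 0.848) with that sample left out. HES1 has a canonical transcript of 1575 bases, and that sample is the one with the most negative relation to length. After a correction of each sample for length and GC content its normalized count in that sample was still 6.23 times the next.

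The target group of the list holds HES and HEY genes by family, with NRARP. Whether each answers to NOTCH in these cells was not tested. The others in the table, HES2, HES4, HES6, HES7 and NRARP, had their highest value among the samples with growth factors in the same replicate 2, as HES1 did. These were 6 of 6 genes of the group, and 5 of 6 after the length and GC correction. Of all tested genes 31.9% had their highest value with growth factors there. NRARP, a feedback inhibitor of NOTCH signalling, had normalized counts of 5.0, 72.1 and 20.7 with growth factors and 9.2, 30.2 and 22.4 without. HES4 had 36.3, 384 and 87.6 with and 131, 244 and 447 without (log2 fold change 1.17, SE 0.83, limma adjusted p 0.502). This replicate does not stand out in the same way for the receptors, since NOTCH1 and NOTCH2 were lowest there among the samples with growth factors. After the length and GC correction NOTCH2 was still lowest there, at 8038 against 13970 and 9161. NOTCH1 was not, at 3470 against 6029 and 3115 in replicates 1 and 3. The pattern of the target group was noticed after the values were seen.

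**Figure D3:**
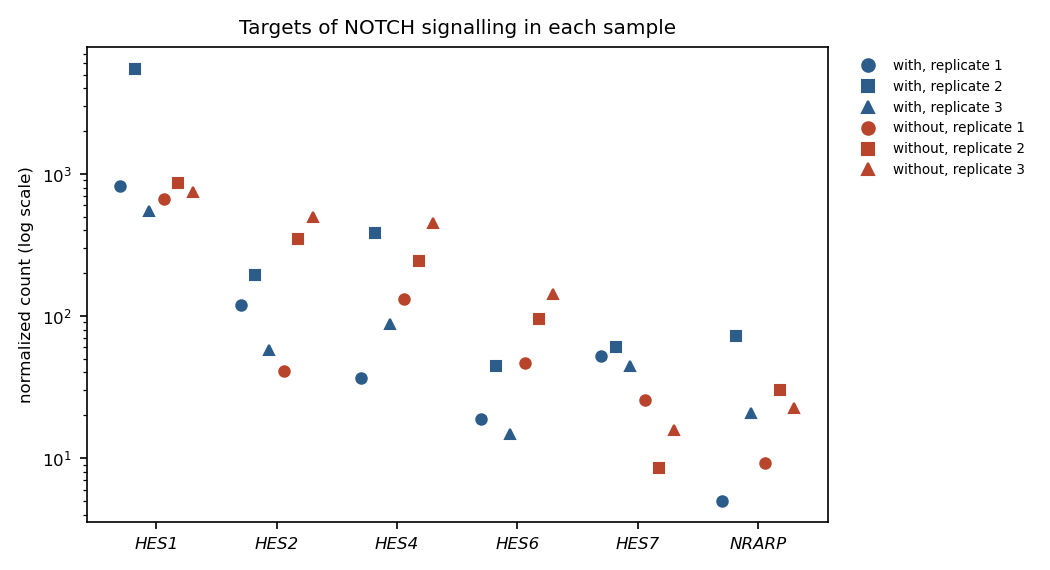
Normalized counts (log scale) of the 6 genes of the list's target group in the table in each of the 6 samples, coloured by growth condition and with marker shape for the replicate. Replicate 2 with growth factors is the highest of its group for every gene, by 6.75 times for HES1.

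Of the targets 0 of 6 were called in either direction by limma, against 4.36% of all genes called higher and 1.97% lower. HES6, which opposes HES1, had all depleted samples above the others (46.7, 94.4 and 143 against 18.8, 44.5 and 14.8 normalized counts), with a log2 fold change of 1.84 (SE 0.62, adjusted p 0.134). HES7, the segmentation clock gene, had all depleted samples below the others (25.6, 8.5 and 15.7 against 52.6, 60.3 and 44.3), with a log2 fold change of -1.71 (SE 0.56, adjusted p 0.122). Both were picked out because their groups did not overlap. This held for 1 gene of 6 higher, against 13.5% of all genes, and 1 lower, against 12.1%. HES1 made up 78.8% ± 8.9 of the summed target level per kilobase with growth factors and 53.6% ± 13.9 without, and HES4 12.2% ± 6.7 and 30.9% ± 9.4 (SD, n = 3 each, exact permutation p = 0.1 for both). The summed target level was 1735 ± 2021 per kilobase with and 946 ± 297 without (SD, n = 3 each, exact permutation p = 0.9).

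Depleted replicate 1 ran through many of these results. Among the depleted samples it had the lowest value for 6 of 7 members, all but NOTCH2, beside 35.5% of all tested genes, and for 7 of 7 after the length and GC correction. Replicate 3 with growth factors had the highest value of its group for 5 of 7 members, beside 41.3% of all tested genes. After the same correction it was still the highest for NOTCH3 and JAG1 only. For NOTCH1 the corrected counts were then 6029, 3470 and 3115 in replicates 1 to 3 of that group. The leave-one-out plot shows where single samples matter.

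**Figure D4:**
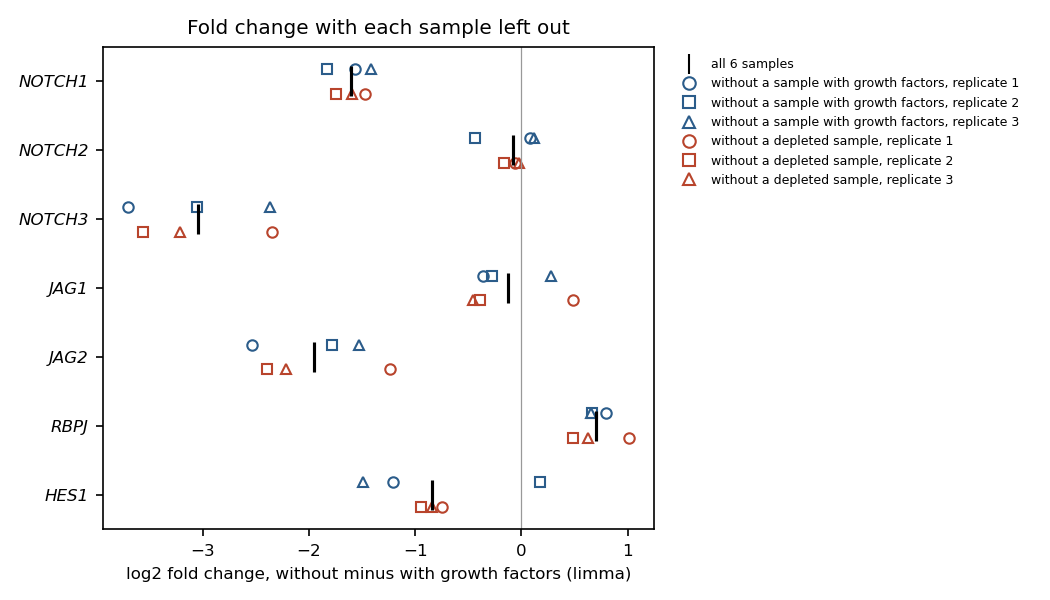
Log2 fold change (without minus with growth factors, limma) of the 7 members with all 6 samples (black bar) and with each sample left out in turn (open markers, blue for a sample with growth factors, red for a depleted one). NOTCH1 stays between -1.83 and -1.41 and NOTCH3 between -3.70 and -2.35, while HES1, JAG1 and NOTCH2 cross 0.

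The wider NOTCH pathway list had 72 genes grouped by role, of which 64 were in the table and all 64 were tested, the 7 members included. By limma 1 gene of 64 was called higher, against 4.36% of all genes, and 1 lower, against 1.97%, and 62 were not called. The lower one was NOTCH1 and the higher one was TLE4, a Groucho-type corepressor that binds HES proteins. TLE4 rose from 310, 145 and 371 normalized counts with growth factors to 1372, 1145 and 874 without, or 4.11-fold between the means, with a log2 fold change of 2.12 (SE 0.40, adjusted p 0.0187). Its limma adjusted p missed the threshold with depleted replicate 1 (0.0565), 2 (0.0837) or 3 (0.0511) left out, at log2 fold changes of 1.96 to 2.29, and passed it with any 1 sample with growth factors left out (0.0111 to 0.0487). The median log2 fold change of the list was -0.09, with 26 genes positive and 38 negative, and the groups did not overlap for 6 genes higher, against 13.5% of all genes, and 9 lower, against 12.1%.

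In the role groups other than receptors, ligands and targets, TLE4 was the only gene called by limma. Of the 6 genes that add sugars to receptor and ligand 0 were called, and all lay within 2-fold, EOGT with a log2 fold change of -0.36 and POFUT1 with -0.17. The 9 genes of receptor cleavage also gave 0 calls within a range of -0.59 to 0.20, with ADAM10, the protease that makes the first cut after ligand binding, at -0.30. Among 11 genes of trafficking and turnover 0 were called, from -1.10 for DTX4 (adjusted p 0.0527) to 1.33 for DTX3 (0.317), the ends of the range, and MIB1 and ITCH, ubiquitin ligases of ligand and receptor, had log2 fold changes of -0.34 and -0.16. The nuclear complex gave 0 calls of 9, with the coactivators CREBBP at 0.10 and EP300 at -0.16. Of the other corepressor genes, NCOR1 and KDM5A, which act as RBPJ corepressors, stood at 0.07 and -0.03. The widest of the rest were TLE2 at 1.62 (adjusted p 0.184), BEND6 at 1.36 (0.0745, groups apart) and TLE3 at -0.94 (0.209, groups apart). These values are from the limma fit, in which a gene that was not called is not shown to be unchanged.

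**Figure D5:**
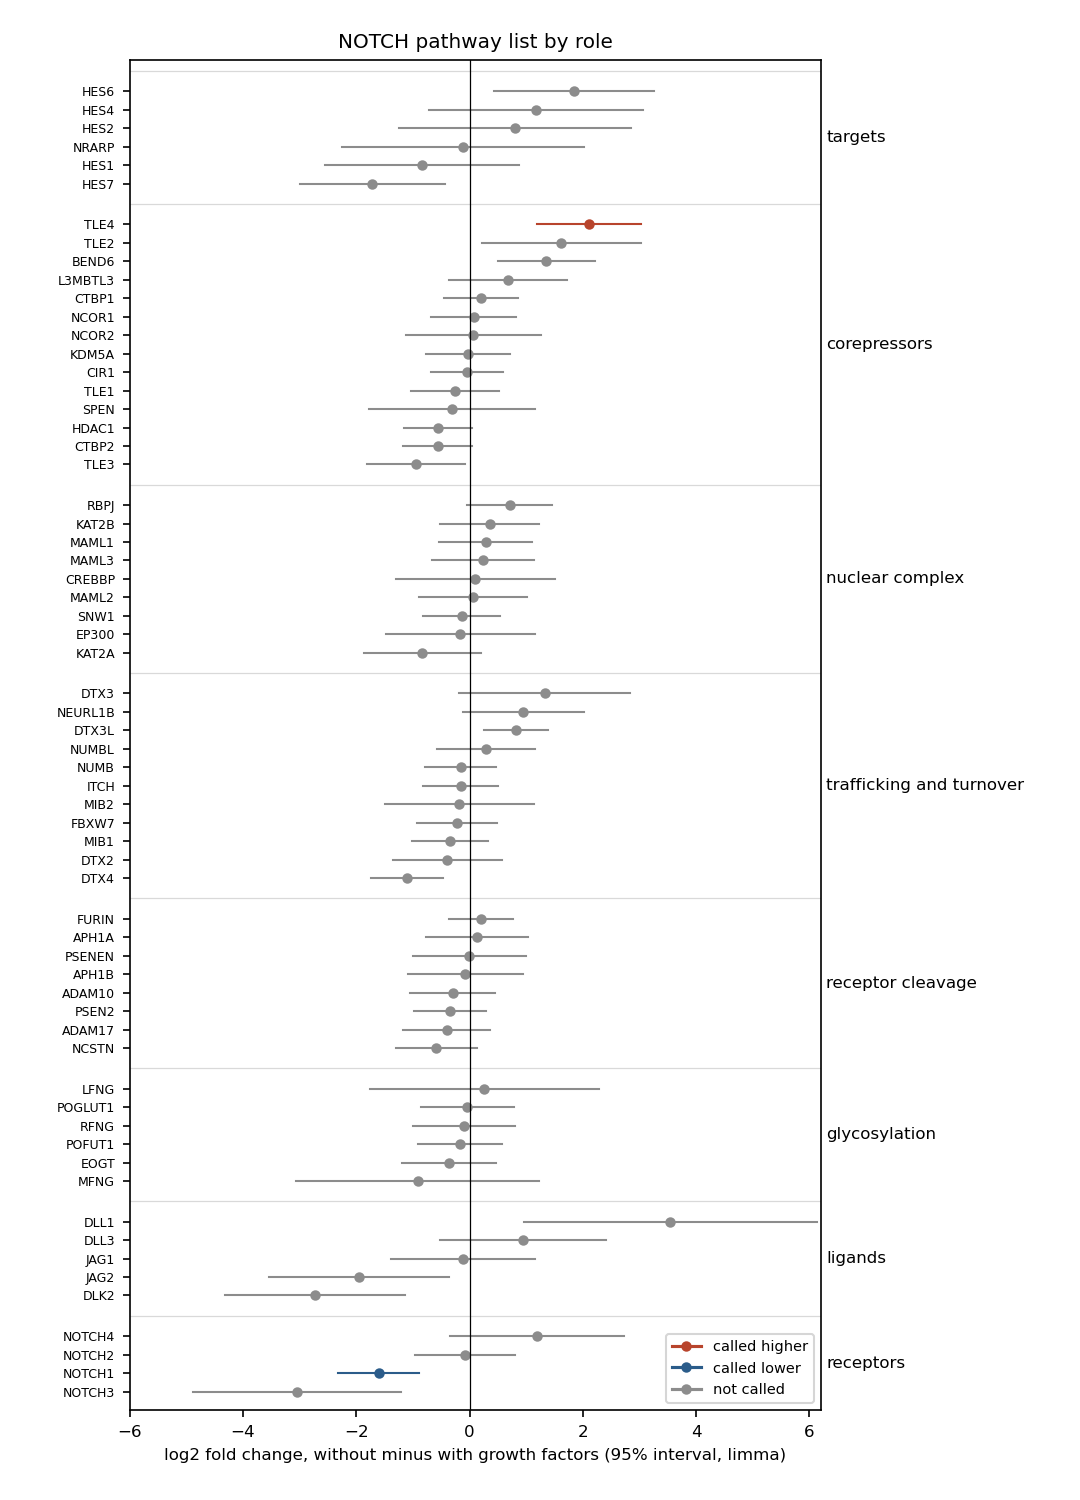
Log2 fold change (without minus with growth factors) with its 95% interval from limma for the tested genes of the NOTCH pathway list, grouped by role, with 1 gene of receptor cleavage not drawn. TLE4 (2.12) and NOTCH1 (-1.60) are the called genes. The fold changes of the genes of glycosylation, cleavage and the nuclear complex lie within 2-fold. Intervals such as that of LFNG reach beyond 2-fold in both directions.

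The calls depended on the test. On the whole reads recovered from the normalized counts, edgeR called 1 of 7 members lower, NOTCH1 (adjusted p 0.0300), against 1.7% of all genes, and 0 higher, against 4.02%. DESeq2 called 3 members lower, NOTCH1 (adjusted p 2.9e-04), NOTCH3 (6.0e-04) and JAG2 (0.0368), against 4.86% of all genes, and 0 higher, against 7.58%. On the wider list DESeq2 called 5 genes of 64 lower, these 3 with DLK2 (adjusted p 4.7e-04) and DTX4 (0.0118), and 5 higher, namely TLE4 (1.3e-04), DLL1 (0.0065), BEND6 (0.0074), TLE2 (0.0292) and HES6 (0.0381). DLK2 was also called lower by edgeR (adjusted p 0.0480). With each sample corrected for transcript length and GC content, limma called NOTCH1 (log2 fold change -2.01, adjusted p 0.0091) and NOTCH3 (-3.42, 0.0236) lower, against 3.13% of all genes, and 0 members higher, against 4.62%. This fit also called DTX4 (adjusted p 0.0258), DLK2 (0.0301) and TLE3 (0.0394) lower and TLE4 (0.0169) higher. NOTCH1 was thus called by each of these 4 fits and NOTCH3 by 2 of them, while NOTCH2, JAG1, HES1 and RBPJ were called by none.

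For each member, the gene outside the list with the most similar profile was the one with the smallest root mean square difference in log2 normalized counts, after centring over the 6 samples, among 11586 genes with a mean of at least 100. It was FOXO1 for NOTCH1 (0.179), with normalized counts of 1574, 1144 and 1451 with growth factors and 333, 494 and 387 without. For RBPJ it was IVNS1ABP (0.0692), with 2265, 1829 and 1952 against 2127, 4011 and 3461. For HES1 it was S1PR3 (0.209), with 219, 1067 and 158 against 200.4, 233 and 194.5. S1PR3 was chosen by its likeness to HES1, so its high replicate 2 with growth factors follows from the choice. The nearest genes of the others were MED13 for NOTCH2 (0.0581), GPRIN3 for NOTCH3 (0.525), DMD for JAG1 (0.182) and IGSF9 for JAG2 (0.324). Between members the smallest differences were those of NOTCH2 and RBPJ (0.587) and of NOTCH3 and JAG2 (0.613).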

How the data were processed

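RNA was measured in 6 samples of MCF10A cells, grouped by the labels into 3 with and 3 without growth factors. According to the study's methods and the labels, the authors prepared stranded libraries from total RNA after Ribo-Zero depletion and read 100 bases from one end of each fragment. Trimming used cutadapt 1.6, mapping used TopHat2 (hg38), and HTSeq 0.6 counted reads in Gencode v22 genes. The counts were then scaled by size factors from DESeq2 1.8.1. The deposited values are this normalized signal per gene, which is not divided by length. Whole reads (tolerance 0.01) were recovered for 100% of the values, and gave the depth per sample. A floor of 3 reads was used, and floors cover counting error only, since reads carry no molecular identifiers. The step that left low genes out of the table is not given in the sources used here. Gencode v44 named 18913 of 19198 identifiers and gave lengths and GC content.

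The test was limma 3.58.1 (R 4.3.3, with an eBayes trend) on log2(normalized count + 1) for genes averaging 10 or more, so that fold changes of low genes are understated. Calls needed a Benjamini-Hochberg adjusted p under 0.05 and 2-fold. Per-kilobase shares were tested by two-sided exact permutation over samples, with no adjustment, since no p there can pass 0.05. Alternatives were pseudocounts of 0.5 and 10, no filter, a mean of at least 50, the same total, quantile normalization, no trend, a replicate block, leaving out samples singly, edgeR 4.0.16, DESeq2 1.42.0, and a correction for length and GC content. The fits were tested on simulated data. The members and lists were chosen with earlier results of these data known. Genes named outside the members are the called genes, the 2 with the highest mean count in each role and the nearest profile of each member, of which 1 gene is not reported here, and the rest were chosen after their values were seen. Promoter windows are from RefSeq, and 4 of 4 printed windows equalled hg38.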

Additional observations from a re-analysis of the deposited data

How the results depend on the processing

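Results were recomputed under 18 alternatives. The number of members called, 1 by limma on all samples, was 3 by DESeq2, 2 with the length and GC correction, and 0 to 1 with single samples left out. On the wider list the number called, 2, became 10 by DESeq2, 6 with the length and GC correction, and 0 to 6 with single samples left out. It was 6 without replicate 3 with growth factors and 0 without depleted replicate 2 or 3. Without depleted replicate 1 the 2 genes called were TLE2 and LFNG, both higher, and not NOTCH1 and TLE4. Of all genes, DESeq2 called 7.58% higher and 4.86% lower, and the length and GC correction 4.62% and 3.13%. With single samples left out, 1.84% to 8.08% were called higher and 0.742% to 6.49% lower, the most without replicate 3 with growth factors. Over all genes the count of 1076 became 2112 by DESeq2, 2474 without replicate 3 with growth factors, 634 and 675 without replicate 1 or 2 with growth factors, 453 without depleted replicate 2 and 467 without depleted replicate 3. The log2 fold change ranged from -0.43 to 0.12 for NOTCH2, from -0.46 to 0.49 for JAG1 and from -1.49 to 0.17 for HES1 with single samples left out. For JAG1 edgeR gave 0.0080, and for NOTCH2 the length and GC correction gave -0.48. NOTCH1, NOTCH3, JAG2 and RBPJ kept their sign under all 18. The shares of NOTCH1, NOTCH2, NOTCH3, JAG1, JAG2, DLL1 and HES1 kept their direction under the 7 alternatives run on all of them, as did those of JAG1, JAG2 and DLL1 with DLK2 among the ligands. The cause of these changes was not tested.

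Same-numbered samples of the 2 groups did not deviate together, with a mean correlation of -0.226 (-0.0726, -0.283 and -0.323) against 0.114 for other pairs. These are deviations from means of 3 samples and also carry the length and GC trends of each sample. They therefore cannot exclude that the numbers pair the samples. With the replicate block, 2 members were called lower, NOTCH3 (adjusted p 0.0112) and JAG2 (0.0211), against 1.64% of all genes, and NOTCH1 was not (0.0502). With the length and GC correction and the replicate block, 3 members (NOTCH1, NOTCH3 and JAG2) and 4 genes of the wider list were called, against 1.53% lower and 2.68% higher of all genes. Depth limits NOTCH4, DLL1, MFNG and NRARP, whose lowest values lie near the floor.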
